A study of Mus musculus with 2 samples.

Results

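The data described here are the transcripts of 6 receptors that guide leukocytes into and within tissues, namely Ccr2, Ccr6, Cxcr6, Ccr8, Ccr4 and Ltb4r1, in single γδ T cells sorted from the mouse lung. The members were the rows with these symbols among the 32285 genes of the deposited feature lists, and each of the 6 symbols had 1 row. Combinations per cell were made from the first 4 of them. There were 2 droplet libraries, 1 per group, both from uninfected mice aged 5 to 7 weeks and of both sexes. The WT library held lung γδ T cells without the Vγ1 chain from C57BL/6NCrl mice. The KO-labelled library held Vγ1+ cells from B6.Cg-Tcrgtm1lku(B6.Vg4-/-Vg6-/-) mice, a strain described as lacking the Vγ4 and Vγ6 chains. Genotype, strain, sorted population and library all changed together between the groups and cannot be told apart, and with 1 library per group there was no replicate and no test.

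Chemokine receptors are G protein-coupled receptors that let lymphocytes follow gradients of chemokines made by tissue cells. CCR2 responds to CCL2 and related chemokines released in inflammation. CCR6 responds to CCL20, which epithelia of barrier tissues make, and is a known surface marker of IL-17-producing T cells. CXCR6 binds CXCL16 and is widely expressed on T cells that stay in tissues such as the lung and liver. CCR8 binds CCL1 and CCL8, CCR4 binds CCL17 and CCL22, and both are known from T cells of skin and lung. Ltb4r1 encodes BLT1, the high-affinity receptor for the lipid leukotriene B4. Mouse γδ T cells are divided by their γ chain, and IL-17-producing (γδ17) cells of the lung are known to carry mainly the Vγ4 or Vγ6 chain. The files name the γ variable genes Tcrg-V1, Tcrg-V4 and Tcrg-V6 and the δ variable genes Trdv4, Trdv5 and so on.

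After the cell filter and removal of myeloid-like and B-like clusters, 2412 WT and 6576 KO-labelled T cells remained, with a median of 3283 and 3521 unique molecular identifiers (UMIs) per cell. Levels are given as CPM, a gene's UMIs per 1000000 UMIs of the summed group, and all intervals are 95% intervals of counting error only. Tcrg-V6 had 2902 UMIs in the WT and 0 in the KO-labelled library. Tcrg-V4 had 699 UMIs in the WT and 1287 UMIs in the KO-labelled library, where 14.99% of T cells had at least 1. The strain is described as lacking the Vγ4 chain, and whether these transcripts give a working chain was not tested. The study states that KO cells of its γδ17 clusters express neither Tcrg-V4 nor Tcrg-V6. Tcrg-V1 was found in 43.7% of KO-labelled and 7.96% of WT T cells. Cd3e, a subunit of the T cell receptor complex, was found in 85.9% and 89.6% of WT and KO-labelled T cells. A cell was placed in a γ or δ group when it had at least 1 UMI of exactly 1 such variable gene, which gave 518 Tcrg-V6 and 400 Tcrg-V4 cells in the WT and 2121 Tcrg-V1 cells in the KO-labelled library. In 1017 WT and 3200 KO-labelled T cells no Tcrg-V gene was read. An Xist UMI without any Y-linked UMI was found in 34.4% of T cells of the WT and 48.6% of those of the KO-labelled library.

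In the mm10 (GRCm38) genome, 4 of the genes lie on chromosome 9 (Ccr4 at chr9:114490316-114504916 on the minus strand, Ccr8 at chr9:120092114-120094906, Cxcr6 at chr9:123806475-123811760 and Ccr2 at chr9:124101950-124113557, each of these on the plus strand). In the files these genes carry the Ensembl identifiers ENSMUSG00000047898 (Ccr4), ENSMUSG00000042262 (Ccr8), ENSMUSG00000048521 (Cxcr6), ENSMUSG00000049103 (Ccr2), ENSMUSG00000040899 (Ccr6) and ENSMUSG00000046908 (Ltb4r1). Ccr6 spans chr17:8236043-8257141 and Ltb4r1 chr14:55765962-55768494, both on the plus strand. Cxcr6 lies within Fyco1, a gene of the opposite strand. The use of strand in counting is not given in the sources used here. Reads of the pair can therefore not be told apart with certainty. Fyco1 was counted at 42.6 CPM in WT Tcrg-V6 cells, 29.8 CPM in WT Tcrg-V4 cells and 25.9 CPM in KO-labelled Tcrg-V1 cells, and its level changed less between these groups than that of Cxcr6.

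The RefSeq promoter windows of the 4 receptors used for the combinations, 250 bases before to 50 bases after the start, are printed 5′ to 3′ on the sense strand because Ccr2 and Cxcr6 went together across cell groups while Ccr6 and Ccr8 did not. Capitals mark matches to 4 short motifs searched on both strands, AGGTCA (the half-site bound by ROR factors), TGCTGA (a MAF half-site), AGGTGT (a T-box core) and TTCNNNGAA (the site bound by STAT factors). The windows are chr17:8235793-8236092, chr9:124101933-124102232, chr9:123806227-123806526 and chr9:120091883-120092182, in the order printed. The starts are those of RefSeq. For Ccr2 the RefSeq start lies downstream of the gene start given above, 124101950, so most of its window is inside that span. The bases before that gene start were mostly not searched.
Ccr6: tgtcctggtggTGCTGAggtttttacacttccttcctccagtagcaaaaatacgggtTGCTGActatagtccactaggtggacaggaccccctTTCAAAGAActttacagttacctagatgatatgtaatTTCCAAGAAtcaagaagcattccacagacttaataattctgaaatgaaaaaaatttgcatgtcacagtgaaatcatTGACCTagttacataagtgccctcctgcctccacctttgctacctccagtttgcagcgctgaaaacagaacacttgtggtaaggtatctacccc
Ccr2: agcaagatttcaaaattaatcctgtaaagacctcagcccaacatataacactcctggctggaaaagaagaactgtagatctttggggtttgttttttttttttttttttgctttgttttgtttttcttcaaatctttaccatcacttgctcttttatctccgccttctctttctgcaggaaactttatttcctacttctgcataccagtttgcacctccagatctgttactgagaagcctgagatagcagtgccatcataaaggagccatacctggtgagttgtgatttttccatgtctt
Cxcr6: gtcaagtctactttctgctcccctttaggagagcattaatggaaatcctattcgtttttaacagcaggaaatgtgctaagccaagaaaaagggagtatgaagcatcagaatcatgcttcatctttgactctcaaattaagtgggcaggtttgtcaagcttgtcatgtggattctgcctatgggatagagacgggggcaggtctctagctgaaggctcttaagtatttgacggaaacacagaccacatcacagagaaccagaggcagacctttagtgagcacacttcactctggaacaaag
Ccr8: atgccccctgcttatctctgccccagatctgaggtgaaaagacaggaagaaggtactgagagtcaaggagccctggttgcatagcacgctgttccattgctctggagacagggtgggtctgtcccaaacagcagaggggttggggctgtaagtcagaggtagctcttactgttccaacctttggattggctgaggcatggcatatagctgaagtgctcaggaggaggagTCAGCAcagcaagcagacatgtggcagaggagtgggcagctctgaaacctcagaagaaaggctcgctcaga
The Ccr6 window held 1 match of AGGTCA, 2 of TGCTGA and 2 of TTCNNNGAA. The Ccr8 window held 1 match of TGCTGA, and the Ccr2 and Cxcr6 windows held none of the 4. Of 32817 promoter windows of this length, 16.3% held AGGTCA, 19.5% TGCTGA, 13.7% AGGTGT and 8.29% TTCNNNGAA, so each motif alone was common. A match of letters is not a bound site, and a second Ccr6 start in the same table, with the window chr17:8242276-8242575, had no match.

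Over all T cells, Ccr2, Ccr6 and Ltb4r1 were lower and Ccr8 was higher by more than 2-fold in the KO-labelled library. Ccr2 was at 161 CPM in the WT but at 74.1 CPM in the KO-labelled T cells, which is a log2 ratio of -1.12 (interval -1.22 to -1.02). Ccr6 was at 43.8 and 8.82 CPM, a log2 ratio of -2.31 (interval -2.56 to -2.07). Ltb4r1 was at 63.8 and 29.5 CPM, a log2 ratio of -1.11 (interval -1.27 to -0.95). Ccr8 went the other way, with 5.73 CPM in the WT and 28.0 CPM in the KO-labelled T cells, which is a log2 ratio of 2.29 (interval 1.87 to 2.73). Cxcr6 was at 566 and 338 CPM and Ccr4 at 35.9 and 47.6 CPM, log2 ratios of -0.74 and 0.41 that stayed within 2-fold. Of all 12032 genes tested, those with at least 30 UMIs over both sums, 5.44% were lower and 3.26% were higher past 2-fold in the KO-labelled library. Among the 6 receptors it was 3 lower and 1 higher. Restricted to cells with an Xist and no Y-linked UMI, the log2 ratio of Ccr2 was -0.95, which is within 2-fold.

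Cell make-up also differed between the libraries, and its part in the differences over all T cells was read from the cell classes. Cells of clusters named γδ17-like from their markers (clusters 4, 7 and 10, formed without the receptor genes) were 60.8% of the T cells in the WT but 22.3% in the KO-labelled library, and the 6 receptors were read mainly in them. Cxcr6 was at 924 CPM in WT γδ17-like and 41.0 CPM in the other WT T cells. In the KO-labelled library it was at 1094 and 88.1 CPM. Ccr6 was at 72.9 and 35.3 CPM in γδ17-like cells of the WT and KO-labelled libraries, with 3 UMIs in all other WT T cells and 1 UMI in all other KO-labelled T cells. In sums over a library, fewer cells of a type and less RNA per cell cannot be told apart.

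Within γδ17-like cells Ccr6 was lower and Ccr8 and Ccr4 were higher by more than 2-fold in the KO-labelled library, and Cxcr6 changed its direction, as the plot of library differences shows. Ccr2 was at 263 CPM in 1466 WT cells and 248 CPM in 1467 KO-labelled cells, a log2 ratio of -0.08 (interval -0.19 to 0.02). Ltb4r1 was at 105 and 113 CPM, a log2 ratio of 0.10 (interval -0.06 to 0.27). For both receptors these intervals include 0. Cxcr6 was slightly higher in the KO-labelled library, with a log2 ratio of 0.24 (interval 0.19 to 0.30). Ccr6 stayed lower, with a log2 ratio of -1.05 (interval -1.29 to -0.81). Ccr8 was at 7.08 CPM in the WT and 88.3 CPM in the KO-labelled cells, a log2 ratio of 3.64 (interval 3.15 to 4.17), and Ccr4 was at 53.3 and 125 CPM, a log2 ratio of 1.23 (interval 1.03 to 1.43). Past 2-fold, 2 of the 6 receptors were higher and 1 was lower, where 2.91% and 3.43% of all 10212 genes tested were.

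**Figure D1:**
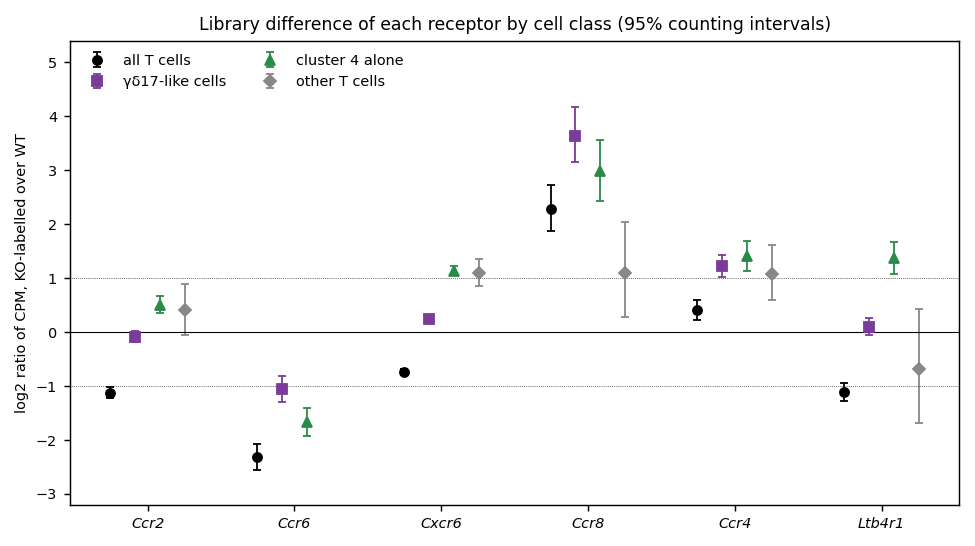
Each point is the log2 ratio of a receptor's CPM in the KO-labelled over that in the WT library, for all T cells, γδ17-like cells, cluster 4 alone and the other T cells, with 95% counting intervals and dotted lines at 2-fold. Ccr6 is not plotted for the other T cells because it had 4 UMIs there. Ccr8 lies above 0 in every class and Ccr6 below 0 in each class shown, whereas Ccr2, Cxcr6 and Ltb4r1 lie below 0 in all T cells and above 0 in cluster 4.

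Different clusters made up the γδ17-like cells of the libraries. Cluster 4 held 729 WT and 1326 KO-labelled cells, whereas cluster 7 held 597 WT but 26 KO-labelled cells. In cluster 4 alone, Ccr2 was at 169 CPM in the WT and 240.3 CPM in the KO-labelled cells. Cxcr6 was at 497 and 1094 CPM, Ltb4r1 at 42.9 and 111 CPM, Ccr4 at 46.7 and 124 CPM, and Ccr8 at 11.2 and 88.2 CPM. Ccr6 alone was lower in the KO-labelled cells of this cluster, at 113 and 35.9 CPM. WT cells of cluster 7 had Ccr2 at 374 CPM, Cxcr6 at 1443 CPM and Ltb4r1 at 180.0 CPM, above both libraries' cells of cluster 4, but Ccr6 at 29.5 CPM. With finer clustering (resolution 1.0) only 414 KO-labelled cells were named γδ17-like, and the log2 ratio of Cxcr6 in the class was then -0.62, of Ccr2 -0.43 and of Ltb4r1 -0.30. That of Ccr4 was 0.83, which is no longer past 2-fold.

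Outside the γδ17-like clusters the receptors were unevenly spread. Cluster 3, led by Klrb1c, Klrc1 and Xcl1, had Cxcr6 at 54.9 CPM in 342 WT cells and 239 CPM in 780 KO-labelled cells. Its Ccr2 was at 19.6 and 45.7 CPM. Cluster 5, led by Izumo1r and almost all KO-labelled (308 cells), had Cxcr6 at 353 CPM and Ccr2 at 97.0 CPM with no Ccr6 UMI. Its Ccr4 was at 119 CPM (interval 101 to 139), close to the 125 CPM of the γδ17-like cells of the same library. Clusters 0 and 1, which held 1724 and 1868 KO-labelled cells, had Cxcr6 at 30.2 and 36.3 CPM. No γδ1-like cluster was named by the markers at this resolution, so these clusters are given by number.

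Among the γ chain groups, WT Tcrg-V6 cells had the highest Ccr2, Cxcr6 and Ltb4r1, WT Tcrg-V4 cells the highest Ccr6, and KO-labelled Tcrg-V1 cells the highest Ccr8. Ccr2 was at 331 CPM (interval 306 to 357) in WT Tcrg-V6, 90.8 CPM (interval 76.2 to 107) in WT Tcrg-V4 and 87.0 CPM (interval 81.2 to 93.2) in KO-labelled Tcrg-V1 cells. The latter pair overlapped, with a log2 ratio of -0.06 (interval -0.32 to 0.21). Cxcr6 was at 1230.2, 235 and 401 CPM in the same order, and no interval overlapped another. Ltb4r1 was at 159 CPM in WT Tcrg-V6, 20.5 CPM in WT Tcrg-V4 and 37.4 CPM in KO-labelled Tcrg-V1 cells. Of the 6 receptors, Ltb4r1 had the largest log2 ratio of WT Tcrg-V6 over WT Tcrg-V4 cells, at 2.96 (interval 2.42 to 3.54).

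Ccr6 and Ccr8 followed other orders. Ccr6 was at 80.9 CPM in WT Tcrg-V4, 26.4 CPM in WT Tcrg-V6 and 9.85 CPM in KO-labelled Tcrg-V1 cells. The log2 ratio of WT Tcrg-V6 over WT Tcrg-V4 was -1.62 (interval -2.11 to -1.14), and that of KO-labelled Tcrg-V1 over WT Tcrg-V4 was -3.04 (interval -3.44 to -2.64). Ccr8 was at 35.0 CPM in KO-labelled Tcrg-V1 cells, against 7.95 CPM from 12 UMIs in WT Tcrg-V4 cells and 1.52 CPM from 3 UMIs in WT Tcrg-V6 cells. Its log2 ratio of KO-labelled Tcrg-V1 over WT Tcrg-V6 cells was 4.52 (interval 2.96 to 6.81). Ccr4 was at 58.7 CPM in KO-labelled Tcrg-V1, 56.8 CPM in WT Tcrg-V6 and 32.5 CPM in WT Tcrg-V4 cells, and the first pair differed by a log2 ratio of 0.05 (interval -0.25 to 0.35).

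**Figure D2:**
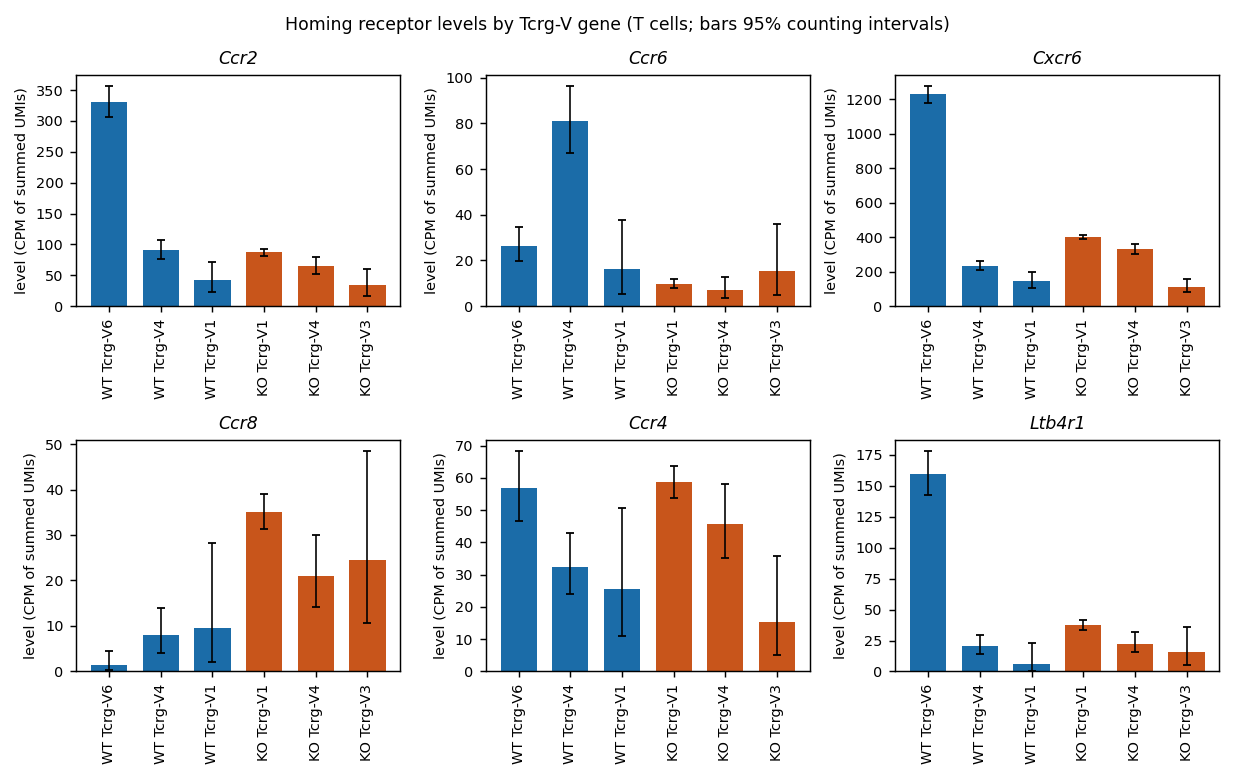
Bars give the CPM of each receptor in T cells with UMIs of exactly 1 Tcrg-V gene, WT in blue and KO-labelled in orange, with 95% counting intervals and a separate axis for each gene. WT Tcrg-V6 cells stand highest for Ccr2, Cxcr6 and Ltb4r1, WT Tcrg-V4 cells for Ccr6 at 80.9 CPM and KO-labelled Tcrg-V1 cells for Ccr8 at 35.0 CPM.

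The remaining γ groups were smaller. The 82 WT cells with Tcrg-V1 UMIs had Cxcr6 at 148 CPM and Ccr6 at 16.1 CPM, the latter from 5 UMIs. The 361 KO-labelled cells with Tcrg-V4 UMIs did not carry the pattern of WT Tcrg-V4 cells. Their Ccr6 was at 7.02 CPM and their Ccr8 at 21.1 CPM, against 80.9 and 7.95 CPM in WT Tcrg-V4 cells. Against KO-labelled Tcrg-V1 cells, the log2 ratio of Tcrg-V1 over Tcrg-V4 was 0.49 for Ccr6 (interval -0.45 to 1.60) and 0.73 for Ccr8 (interval 0.19 to 1.32).

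The γ groups differed in how many of their cells were γδ17-like, at 95.8% of WT Tcrg-V6, 55.3% of WT Tcrg-V4 and 27.4% of KO-labelled Tcrg-V1 cells. Restricted to γδ17-like cells, Cxcr6 was at 1270 CPM in WT Tcrg-V6 and 1150 CPM in KO-labelled Tcrg-V1 cells, and at 444 CPM in WT Tcrg-V4 cells. Ltb4r1 was at 163, 124 and 41.7 CPM in the same order, and Ccr2 at 339, 249 and 176 CPM. Thus among γδ17-like cells the KO-labelled Tcrg-V1 group lay nearer to WT Tcrg-V6 than to WT Tcrg-V4 cells in Cxcr6 and Ltb4r1. For Ccr6 it was also nearer to WT Tcrg-V6 cells, at 33.7 CPM against 26.9 CPM in WT Tcrg-V6 and 161 CPM in WT Tcrg-V4 cells, and the log2 ratio to WT Tcrg-V6 cells was 0.32 (interval -0.19 to 0.85). Ccr8 and Ccr4 set the KO-labelled group apart from both WT groups. Ccr8 was at 96.6 CPM against 1.58 CPM in WT Tcrg-V6 and 14.8 CPM in WT Tcrg-V4 cells. Ccr4 was at 134 CPM against 59.1 and 45.7 CPM.

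Ccr2 and Ltb4r1 are also transcribed by monocytes and neutrophils, so myeloid transcripts were counted beside them. The 10 myeloid markers summed to 330 CPM in WT Tcrg-V6, 199.5 CPM in WT Tcrg-V4 and 170 CPM in KO-labelled Tcrg-V1 cells, with 7, 9 and 9 of the 10 detected. Most of this was Cst3, at 290 CPM in WT Tcrg-V6 and 140 CPM in WT Tcrg-V4 cells. Cebpb, at 25.9 and 19.2 CPM, and Cd14, at 5.58 and 1.33 CPM, were also higher in WT Tcrg-V6 cells, whereas Tyrobp, at 3.55 and 30.5 CPM, was lower. Spi1 and Itgam were at 0 in WT Tcrg-V6 cells and had 1 and 3 UMIs in WT Tcrg-V4 cells, while Csf1r had 1 UMI in WT Tcrg-V6 cells and was at 0 in the other two groups. The part of myeloid transcripts in the Ccr2 and Ltb4r1 levels was not tested. Among the removed cells, 10 of 72 myeloid-like cells had Ccr2 and 8 had Ltb4r1 after each cell was thinned to 2000 UMIs.

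Grouping by δ chain gave a like split in the WT. Of the 518 WT Tcrg-V6 cells, 439 had Trdv4 as their single δ gene, so the Trdv4 and Tcrg-V6 groups share cells. WT Trdv4 cells (700 cells) had Ccr2 at 360.1 CPM, Cxcr6 at 1330 CPM and Ltb4r1 at 165 CPM. WT Trdv5 cells (371 cells) had these at 98.8, 290.0 and 20.4 CPM in the same order, but Ccr6 at 92.3 CPM against 27.4 CPM in WT Trdv4 cells. WT Trdv2-2 cells (283 cells) had Ccr6 at 67.2 CPM and Cxcr6 at 204 CPM. WT Trav13-4-dv7 cells, of which 12.2% were γδ17-like, had the lowest Ccr2 and Cxcr6, at 13.0 and 73.9 CPM.

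In the KO-labelled library the Trdv4 cells (87 cells) stood above the other δ groups for all 6 receptors. Their Cxcr6 was at 899 CPM (interval 801 to 1005), their Ltb4r1 at 132 CPM and their Ccr6 at 46.8 CPM. The dv6 cells, which carried a gene of the near-identical Trav15-dv6 family counted together, numbered 929 and had these at 418, 34.3 and 7.38 CPM. The log2 ratio of Trdv4 over dv6 cells was 1.10 for Cxcr6 (interval 0.92 to 1.28), 1.94 for Ltb4r1 (interval 1.42 to 2.44) and 2.67 for Ccr6 (interval 1.68 to 3.60). For Ccr4 it was 0.55, with an interval of -0.03 to 1.08 that includes 0. Of the KO-labelled Trdv4 cells 63.2% were γδ17-like, against 23.9% of dv6 cells. The lowest levels were those of Trdv1 cells (589 cells, 8.49% γδ17-like), with Cxcr6 at 146 CPM, Ccr2 at 29.5 CPM, Ccr8 at 8.50 CPM and Ccr6 at 1.79 CPM.

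Cells with the same δ gene could be set side by side between the libraries. Trdv4 cells had Ccr8 at 1.56 CPM from 4 UMIs in the WT and 82.0 CPM in the KO-labelled library, whereas Ccr2 was at 360.1 and 143 CPM. In Trdv5 cells Ccr6 was at 92.3 and 8.33 CPM and Cxcr6 at 290.0 and 283 CPM. In Trdv2-2 cells Ccr6 was at 67.2 and 10.5 CPM. In Trav13-4-dv7 cells Cxcr6 was at 73.9 CPM in the WT and 338 CPM in the KO-labelled library, and 12.2% and 31.4% of them were γδ17-like. Ccr8 was higher in the KO-labelled library in each of the 4 δ groups, with log2 ratios from 1.59 in Trdv2-2 cells to 5.71 in Trdv4 cells. Ccr6 was lower in it in Trdv5 and Trdv2-2 cells, and had 22 UMIs over both libraries in Trav13-4-dv7 cells, under the minimum for a ratio. In Trdv4 cells its log2 ratio was 0.78 (interval -0.11 to 1.57), and among γδ17-like Trdv4 cells it was 1.32 (interval 0.43 to 2.12), from 16 KO-labelled and 69 WT UMIs. Those UMIs lay in 7 of 55 KO-labelled and 59 of 691 WT cells. The shares of cells, 12.7% (interval 5.27 to 24.5) and 8.54% (interval 6.56 to 10.9), had overlapping intervals. In these cells Ccr6 was thus not lower in the KO-labelled library.

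Among γδ17-like cells the δ groups of the KO-labelled library resembled each other more in Cxcr6 than those of the WT did, as the plot by δ gene shows. Cxcr6 ran from 887 CPM in Trdv2-2 to 1281 CPM in dv6 cells in the KO-labelled library, and from 426 CPM in Trdv2-2 to 1342 CPM in Trdv4 cells in the WT. Ccr4 ran from 105 to 135 CPM in the KO-labelled groups and from 36.4 to 56.8 CPM in the WT groups, so the values of the libraries did not overlap. Ccr8 varied within the KO-labelled library, at 131 CPM in Trdv5 and 129.8 CPM in dv6 cells but 44.6 CPM in Trdv2-2 cells. Ccr6 among WT γδ17-like cells was at 166 CPM in Trdv2-2, 149.5 CPM in Trdv5 and 27.4 CPM in Trdv4 cells, and the first pair had overlapping intervals.

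**Figure D3:**
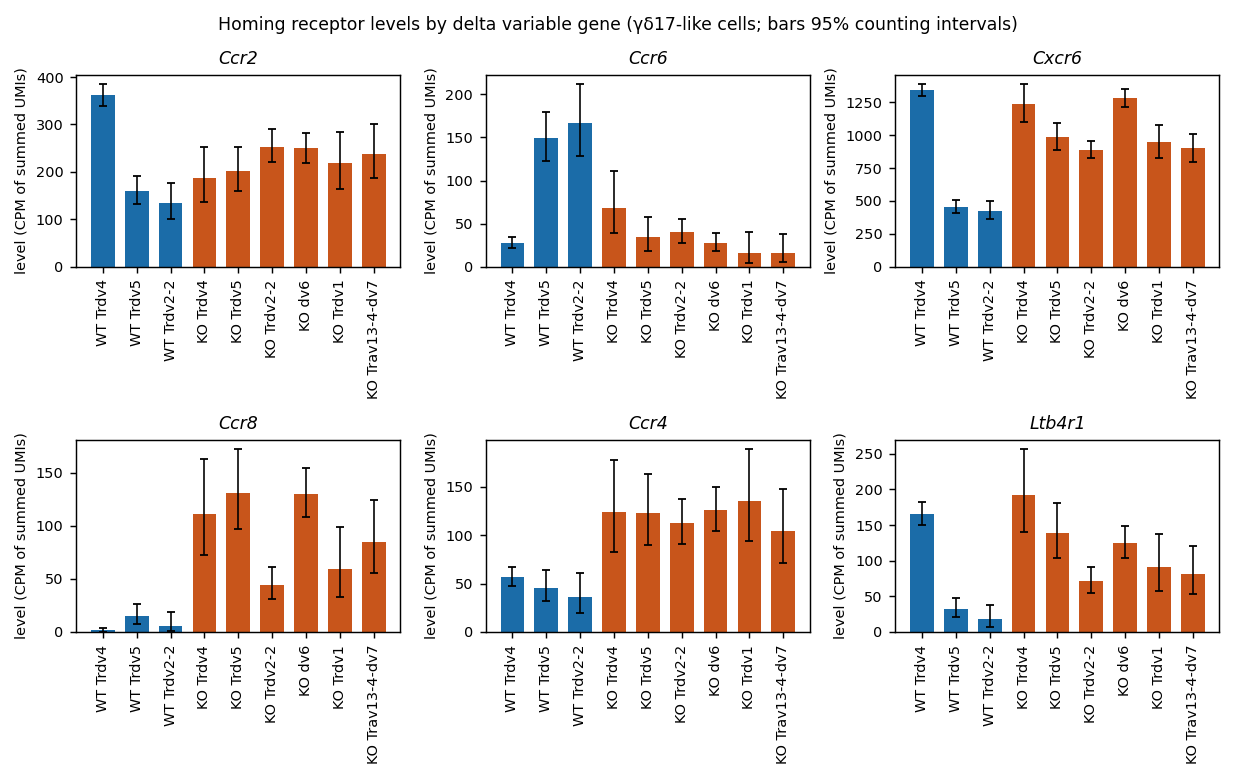
Bars give the CPM of each receptor in γδ17-like cells with UMIs of exactly 1 δ variable gene, WT in blue and KO-labelled in orange, for groups of at least 50 cells, with 95% counting intervals. Ccr4 and Ccr8 bars are higher in every KO-labelled group than in every WT group, and WT Trdv5 and Trdv2-2 cells stand highest for Ccr6.

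Combinations of receptors per cell were read after each cell was thinned to 2000 UMIs, since depth sets how many receptors are seen, and 355 WT and 813 KO-labelled T cells below that depth were left out. None of Ccr2, Ccr6, Cxcr6 and Ccr8 was seen in 49.4% of 2057 cells of the WT and 71.1% of 5763 cells of the KO-labelled library (45.3% and 65.3% before thinning). At least 2 of the 4 were seen in 20.3% of cells in the WT (interval 18.6 to 22.1) and 9.42% in the KO-labelled library (interval 8.68 to 10.2), against 29.1% and 15.5% before thinning. Cxcr6 without the others was the most frequent pattern with a receptor in both libraries, at 22.4% and 16.2%. Ccr2 with Cxcr6 and neither of the others followed, at 14.4% and 6.39%. These are counts of detected transcripts, and a receptor with no UMI in a cell may still be expressed in it.

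The γ groups differed in their combinations. Here Ccr2 with Cxcr6 stands for cells with both of these and neither Ccr6 nor Ccr8. Of 481 WT Tcrg-V6 cells, 34.3% held Ccr2 with Cxcr6 (interval 30.1 to 38.7) and 38.3% Cxcr6 without the others, while 16.8% held none. Of 375 WT Tcrg-V4 cells, 6.93% held Ccr2 with Cxcr6 (interval 4.58 to 9.99), 12.3% Cxcr6 without the others and 60.5% none. Ccr6 without the other receptors was seen in 6.40% of WT Tcrg-V4 cells, in 0.21% of WT Tcrg-V6 cells, which is 1 cell, and in 0.10% of 2011 KO-labelled Tcrg-V1 cells, which is 2 cells. Of the KO-labelled Tcrg-V1 cells 7.56% held Ccr2 with Cxcr6 and 66.3% held none.

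**Figure D4:**
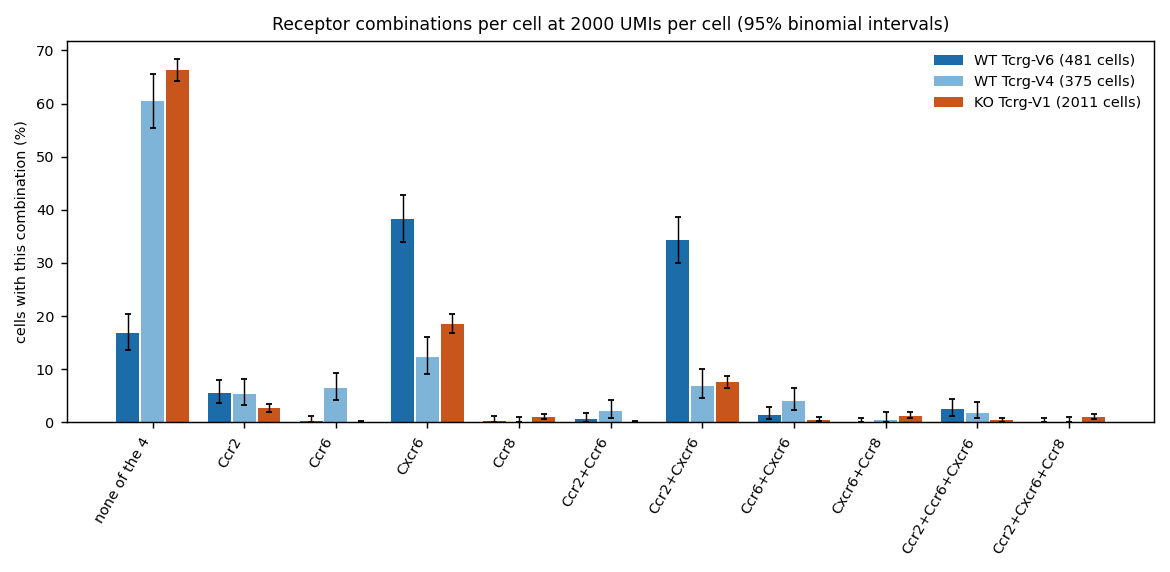
Bars give the percentage of cells with each combination of Ccr2, Ccr6, Cxcr6 and Ccr8 UMIs after thinning to 2000 UMIs per cell in WT Tcrg-V6, WT Tcrg-V4 and KO-labelled Tcrg-V1 cells, with 95% binomial intervals; combinations with fewer than 5 cells in all are not drawn. Ccr2 with Cxcr6 and neither of the others reaches 34.3% in WT Tcrg-V6 cells, and Ccr6 without the others reaches 6.40% in WT Tcrg-V4 cells.

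Combinations with Ccr8 were seen mostly in the KO-labelled library. Ccr2, Cxcr6 and Ccr8 without Ccr6 were seen in 46 of 5763 KO-labelled cells (0.80%, interval 0.58 to 1.06). This combination was seen in 1 of 2057 WT cells (0.05%, interval 0.00 to 0.27). Cxcr6 with Ccr8 and neither of the others reached 1.06% in the KO-labelled library and 0.24% in the WT. All 4 receptors were seen in 2 KO-labelled cells and 1 WT cell.

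Restricted to γδ17-like cells, the KO-labelled Tcrg-V1 group was close to WT Tcrg-V6 cells in several combinations. Cxcr6 without the others was seen in 39.1% of 548 KO-labelled Tcrg-V1 and 39.7% of 464 WT Tcrg-V6 cells, and none of the 4 in 16.6% and 14.0%. Ccr2 with Cxcr6 and neither of the others was seen in 24.1% (interval 20.6 to 27.9) and 35.3% (interval 31.0 to 39.9). Of the WT Tcrg-V4 γδ17-like cells (206 cells), 20.4% had Cxcr6 without the others and 11.2% had Ccr6 without the others. Ccr2 with Cxcr6 and neither of the others was seen in 12.1% of them. Cells with Ccr8 in any combination made up 11.3% of KO-labelled Tcrg-V1, 0.97% of WT Tcrg-V4 and 0.22% of WT Tcrg-V6 γδ17-like cells.

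Pairs of receptors were set beside the number of cells that the product of their shares would give, as a description. Among all KO-labelled Tcrg-V1 cells, Ccr2 and Cxcr6 were seen together in 182 cells where the product gives 71.0, and among the γδ17-like cells of this group in 162 cells where the product gives 146. Over all KO-labelled γδ17-like cells it was 379 cells where the product gives 339. Within WT γδ17-like cells Ccr2 and Cxcr6 were seen together in 331 cells against a product of 279, and Ccr2 and Ltb4r1 in 107 cells against 72.5. Ccr2 and Ccr6 were seen together in 52 WT γδ17-like cells against a product of 58.4, and Ccr6 and Ltb4r1 in 19 against 28.7. In KO-labelled γδ17-like cells Ccr8 and Ccr4 were seen together in 47 cells against 24.7, so that 34.1% of cells with Ccr8 also had Ccr4, against 16.03% of cells without Ccr8.

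The shares of cells with a receptor are given here with the UMIs per cell that had any, which cannot be under 1. In thinned γδ17-like cells, 79.1% of WT Tcrg-V6 and 44.2% of WT Tcrg-V4 cells had Cxcr6, with 3.21 and 2.12 UMIs per cell that had any. For Ccr6 the shares were 4.96% and 25.7%, with 1.04 and 1.32 UMIs. In KO-labelled Tcrg-V1 γδ17-like cells Ccr8 was seen in 11.3% of cells at 1.82 UMIs per cell, and Cxcr6 in 75.7% at 3.13 UMIs.

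Free RNA in droplets gives some UMIs to cells that lack a gene, so the shares were set beside the removed cells. Of 39 B-like cells left after thinning, from 58 with a median of 2484 UMIs, 5.13% had Cxcr6 (2 cells, interval 0.63 to 17.3) and none had Ccr8, which allows a share of up to 7.69%. Of 72 thinned myeloid-like cells, from 93 with a median of 5340 UMIs, none had Ccr6 or Ccr8, which allows a share of up to 4.17%. Cxcr6 in the T cells outside the γδ17-like clusters, at 5.80% in the WT and 10.9% in the KO-labelled library, lay within the interval of the B-like cells. Of the 72 thinned myeloid-like cells 2.78% had Cxcr6 (2 cells, interval 0.34 to 9.68). The WT share lay within that interval and the KO-labelled share above it. Clusters of the KO-labelled library differed, however. The share was 38.2% (interval 32.5 to 44.2) in cluster 5 and 26.99% (interval 23.8 to 30.4) in cluster 3, above the intervals of the B-like and myeloid-like cells. In cluster 0 it was 4.79% and in cluster 1 5.58%, within these intervals. The Ccr8 shares of the WT γ groups were within the limits that these few cells allow. The share of all KO-labelled Tcrg-V1 cells, 3.73%, was also under these limits. Its interval (2.94 to 4.65), however, reached past the 4.17% of the myeloid-like cells. Among γδ17-like KO-labelled Tcrg-V1 cells the Ccr8 share was above these limits, at 11.3% (interval 8.79 to 14.3). B cells are known to express Ccr6, so its background was read from the myeloid-like cells. Ccr6 in γδ17-like cells was well above their limit in WT Tcrg-V4 cells, at 25.7% (interval 19.9 to 32.3). In WT Tcrg-V6 cells, at 4.96% (interval 3.17 to 7.35), and KO-labelled Tcrg-V1 cells, at 4.74% (interval 3.12 to 6.87), it could not be told from background by these few cells. T cells outside the γδ17-like clusters had lower shares. Ccr6 was seen in 0 of 323 thinned WT cells of cluster 3 (interval up to 1.14%) and 1 of 289 of cluster 1 (interval up to 1.91%). In the KO-labelled library it was seen in 0 of 1441 cells of cluster 0 (interval up to 0.26%) and 1 of 1810 of cluster 1 (interval up to 0.31%).

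Levels of the receptors were compared across the 38 groups of library, γ gene and δ gene with at least 50 T cells. These groups share libraries and differ in their content of γδ17-like cells, so the correlations are a description of levels on a log2(CPM + 10) scale. Ccr2 and Cxcr6 went together, with a Pearson r of 0.90, as did Cxcr6 and Ltb4r1 (r of 0.93) and Ccr2 and Ltb4r1 (r of 0.84). Ccr6 had r of 0.42 with Ccr2 and 0.15 with Cxcr6, and Ccr8 had r of 0.21 with Cxcr6 and -0.35 with Ccr6. Ccr4 had r of 0.74 with Ltb4r1 and 0.51 with Ccr8.

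**Figure D5:**
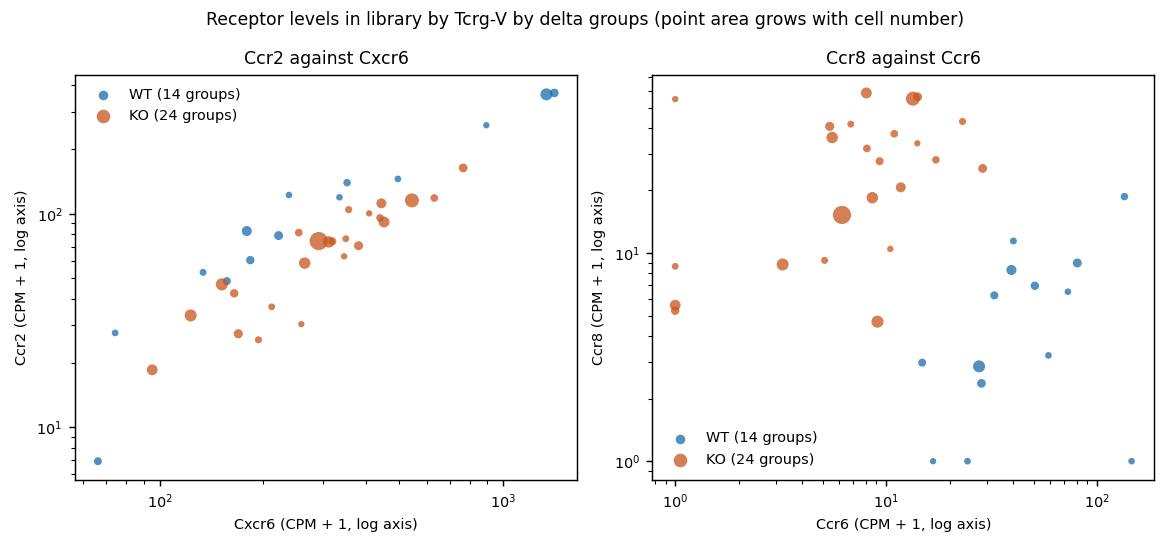
Each point is 1 of the 38 groups of library, Tcrg-V gene and δ gene, with log axes in CPM + 1 and point area growing with the number of cells; the left panel shows Ccr2 against Cxcr6 and the right panel Ccr8 against Ccr6. Both libraries lie along 1 band for Ccr2 and Cxcr6, whereas for Ccr6 and Ccr8 most of the 14 WT groups lie to the lower right of most of the 24 KO-labelled groups.

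Among 7835 genes with at least 300 UMIs over these groups, the 3 most like Ccr2 were Tmem176b, Tmem176a and Bcl2a1d, with r from 0.92 to 0.93. Tmem176b, a membrane protein gene of γδ17 cells, was at 1035 CPM in WT Tcrg-V6, 250.6 CPM in WT Tcrg-V4 and 254 CPM in KO-labelled Tcrg-V1 cells. Those most like Cxcr6 were Ramp1, the co-receptor subunit for the neuropeptide CGRP (r of 0.95), S100a11 (r of 0.93) and S100a4 (r of 0.93), which encode calcium-binding proteins. Ramp1 was at 401 CPM in WT Tcrg-V6, 133 CPM in WT Tcrg-V4 and 189 CPM in KO-labelled Tcrg-V1 cells. Those most like Ccr6 were Il17f, a γδ17 cytokine (r of 0.89), the immediate early gene Fos (r of 0.84) and Ifrd1 (r of 0.83). Il17f was at 109 CPM in WT Tcrg-V4, 31.0 CPM in WT Tcrg-V6 and 3.21 CPM in KO-labelled Tcrg-V1 cells. Ccr8 had lower likeness, with Qpct (r of 0.79), Kcnn4, a calcium-activated potassium channel (r of 0.78), and Ip6k2 (r of 0.77). Kcnn4 was at 106 CPM in KO-labelled Tcrg-V1, 50.4 CPM in WT Tcrg-V4 and 42.6 CPM in WT Tcrg-V6 cells.

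The ligands of these receptors were not read in the sorted T cells at a level that allows a comparison. None of the 9 ligand genes (Ccl2, Ccl7, Ccl12, Ccl20, Cxcl16, Ccl1, Ccl8, Ccl17 and Ccl22) reached 30 UMIs over both libraries. Ccl1, a ligand of CCR8, had 18 UMIs in the KO-labelled T cells, 17 of them in γδ17-like cells, and 0 in the WT, which is too few for a ratio, and it was named after its values were seen. Of the leukotriene enzymes, Lta4h passed this minimum and Alox5 and Alox5ap did not. Lta4h, which makes leukotriene B4, was at 48.3 CPM in the WT and 57.6 CPM in the KO-labelled library. Ltb4r2, the gene of the low-affinity receptor next to Ltb4r1, had 0 UMIs in the T cells of both libraries.

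Of 22 other chemoattractant receptors, 16 were tested over all T cells, 2 were lower past 2-fold in the KO-labelled library and none was higher, with a median log2 ratio of -0.0042 against 0.03 over all genes. Over all genes 5.44% were lower and 3.26% higher. The lower ones were Gpr183, the oxysterol receptor EBI2, at 287 CPM in the WT and 90.7 CPM in the KO-labelled library, and Cx3cr1, the fractalkine receptor, at 7.49 and 3.59 CPM. Of 21 receptor signalling genes, all tested, 2 were lower. These were Rgs1, an inhibitor of G protein signalling, at 592 and 149.5 CPM, and Gnai2, a G protein α subunit, at 363 and 169 CPM. Of 10 residency and adhesion genes, 2 were lower, the hyaluronan receptor Cd44 at 187 and 79.4 CPM and the integrin Itga1 at 5.62 and 2.42 CPM. The median log2 ratio was 0.08 over the signalling genes and -0.11 over the residency and adhesion genes, against -0.93 over the 6 members.

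Between WT Tcrg-V6 and WT Tcrg-V4 cells, 3 of the 5 members tested were higher (Ccr2, Cxcr6 and Ltb4r1) and 1 was lower (Ccr6) past 2-fold, with a median log2 ratio of 1.87. Ccr8 was under the minimum of 30 UMIs. Of all 8041 genes tested, 5.45% were higher and 4.84% lower, with a median of -0.01. Among 12 other chemoattractant receptors tested, Cxcr3, Ccrl2 and Gpr183 were higher in Tcrg-V6 cells. Cxcr3, the receptor for interferon-induced chemokines, was at 105 CPM against 39.8 CPM in Tcrg-V4 cells. Ccr7 and S1pr1, which direct recirculation through lymph nodes, and the gut homing receptor Ccr9 were lower in Tcrg-V6 cells. Ccr7 was at 71.1 CPM against 307 CPM, S1pr1 at 84.8 against 246 CPM and Ccr9 at 10.2 against 74.2 CPM. Among 20 signalling genes tested Rgs1 was higher and Rgs3, Rgs10 and Pik3r5 were lower. Among 9 residency and adhesion genes tested Itgb1 and Cd44 were higher and Itgae, the αE chain of CD103, was lower, at 19.3 against 55.7 CPM.

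Part of these calls ended when both groups were restricted to γδ17-like cells, which were 95.8% of the WT Tcrg-V6 and 55.3% of the WT Tcrg-V4 cells. Cxcr6, Ltb4r1 and Ccr6 stayed past 2-fold, while Ccr2, with a log2 ratio of 0.95, did not. Of all 7297 genes then tested, 5.69% were higher and 2.4% lower in Tcrg-V6 cells. Cxcr3, Ccrl2, Ccr9, S1pr1, Rgs10, Itgb1, Cd44 and Itgae kept their calls, among 12 list genes that passed in all. Ccr7, Gpr183, Rgs1 and Pik3r5 no longer passed 2-fold, and Rgs3 was under the minimum of 30 UMIs.

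Within γδ17-like cells, 3 of 14 other chemoattractant receptors tested were higher in the KO-labelled library and none was lower, where 2.91% and 3.43% of all genes were higher and lower. Ccr9 was at 33.4 CPM in the WT and 72.3 CPM in the KO-labelled cells, Cysltr1, a receptor for cysteinyl leukotrienes, at 17.7 and 45.3 CPM, and the prostaglandin E2 receptor gene Ptger4 at 9.83 and 25.4 CPM. Of 21 signalling genes Gnai2 and Rgs1 were again lower past 2-fold, and of 9 adhesion genes Itgb1 and Cd69 were. The activation and retention gene Cd69 was at 249 CPM in the WT and 122 CPM in the KO-labelled cells. Cysltr1, Ptger4 and Cd69 were named after their values were seen.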

How the data were processed

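The 2 libraries, 1 per group, came from lung γδ T cells separated by flow cytometry. Their deposited matrices give raw UMI counts of each gene in each barcode. The authors counted them in Cell Ranger against mm10; the file headers give version 7.0.0, the submitters' processing notes 7.0 and the study's methods an older release. The methods name a V(D)J kit and the labels a 3′ protocol. Whether introns or strand were used in counting is not given in the sources used here. Counting without strand would merge reads of overlapping genes.

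Of 2520 WT and 6688 KO-labelled barcodes, 2505 and 6634 passed the filter of the methods (over 200 and under 4000 genes, under 10% mitochondrial UMIs), which leaves more cells than the study gives. The libraries held 9173997 and 26436826 UMIs, and 23 barcodes occurred in both. Python 3.11.15 with scanpy 1.11.5 and scipy 1.17.1 was used. Libraries were merged and clustered (2000 variable genes, 30 components, Leiden resolution 0.5) without the receptors, homing lists, T cell receptor genes and sex-linked genes. Clusters were named from fixed markers. UMIs were summed per group as CPM with exact Poisson intervals. Ratios have exact conditional intervals and shares exact Clopper-Pearson intervals, all at 95%, covering counting error only. A share of 0 allows up to 3 counts of its total. A gene was tested with at least 30 UMIs over both sums and called past 2-fold. Doublets were kept, since the caller marked 191 WT and 0 KO-labelled cells and so did not work for the latter. The ratio intervals and 2-fold calls were tested on simulated Poisson counts, and the thinning on cells of these data. The other steps were not tested on simulated data. The value of 1 myeloid marker is not reported here.

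Named were all members, list genes past 2-fold between the libraries or between WT Tcrg-V6 and Tcrg-V4 cells, and the 3 genes most like each of Ccr2, Ccr6, Cxcr6 and Ccr8. The members and lists were chosen with earlier results of these data known. Positions are from GENCODE and promoters from RefSeq, both of GRCm38, and all 6 members matched.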

Additional observations from a re-analysis of the deposited data

Results flagged for a closer look

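The difference between the libraries went opposite ways in cells with different δ genes, with intervals on both sides of 0, and the difference between these groups was not tested. For Ccr2 the log2 ratio of KO-labelled over WT was 2.68 in Trav13-4-dv7 cells but -1.33 in Trdv4 and -0.79 in Trdv5 cells. For Cxcr6 it was 2.19 in Trav13-4-dv7 and 0.49 in Trdv2-2 cells but -0.56 in Trdv4 cells. The share of γδ17-like cells differed between the libraries in the same groups, at 12.2% of WT and 31.4% of KO-labelled Trav13-4-dv7 cells and at 98.7% and 63.2% of Trdv4 cells. Among γδ17-like cells alone, Ccr2 in Trdv5 cells had a log2 ratio of 0.33 (interval -0.10 to 0.75) and Cxcr6 in Trdv4 cells one of -0.11 (interval -0.29 to 0.06), so both intervals then included 0. Ccr2 in Trdv4 cells stayed lower, at -0.95 (interval -1.42 to -0.51), and Cxcr6 in Trdv2-2 cells stayed higher, at 1.06 (interval 0.81 to 1.31).

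The cells removed as myeloid-like and B-like also held receptor UMIs, above the 3 counts that a count of 0 allows. Before thinning, Ccr2 was seen in 23.7%, Ltb4r1 in 17.2%, Cxcr6 in 5.38% and Ccr4 in 4.30% of 93 myeloid-like cells. Ccr6 was seen in 12.1% and Cxcr6 in 8.62% of 58 B-like cells. No myeloid-like cell had Ccr6 or Ccr8.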

How the results depend on the processing

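No paired analysis was possible because a group is a single library, and none of the values has a replicate check. Over all T cells the 6 log2 ratios between the libraries kept their direction under the 9 alternatives tried for each, and 44 of 54 values stayed within the counting interval. Among cells with an Xist and no Y-linked UMI the log2 ratio was -0.95 for Ccr2, no longer past 2-fold, -1.77 for Ccr6, -0.55 for Cxcr6 and 0.91 for Ccr4. With cells thinned to 2000 UMIs it was -1.23, -2.82, -0.82 and 0.15 in this order. It was -2.62 for Ccr6 as the mean of each cell's CPM and -0.69 for Cxcr6 with the myeloid-like and B-like cells kept. Cells with both Ccr2 and Cxcr6 were 16.3% of WT and 7.53% of KO-labelled cells at 2000 UMIs, 7.67% and 3.58% at 1000 UMIs, and 24.4% and 12.04% at 3000 UMIs, so the shares follow depth while their order was kept. At 1.5-fold, 18 in place of 6 homing list genes passed between the libraries and 11 in place of 7 within γδ17-like cells. Without the share of all genes past 1.5-fold beside them, these counts are not a result about the lists. The log2 ratio of Cxcr6 within γδ17-like cells turned from 0.24 to -0.62 at resolution 1.0. There 414 in place of 1467 KO-labelled cells had the name, and a cluster with 1033 KO-labelled cells was left unnamed. The log2 ratio of Ccr6, KO-labelled Tcrg-V1 over WT Tcrg-V6, turned from -1.42 to 0.32 within γδ17-like cells alone. The latter restriction, cluster 4 alone, the removal of doublets at a fixed rate and the removal of shared barcodes were chosen after seeing the data. With 39 and 72 thinned cells, the non-T cells limit how low a share can be told from background. Other sets of values were less stable than the 44 of 54 over all T cells. For the Tcrg-V groups 70 of 90 values were unchanged and 1 was reversed. Within γδ17-like cells 9 of 18 were unchanged and 1 was reversed, and of the values for receptor pairs 38 of 72 were unchanged.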
